A study of Homo sapiens with 6 samples.

Results

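REPS2 and the proteins it works with, the Ral GTPases and the early adaptors of clathrin-coated pits, were examined in DLD-1 cells with and without DKK1. The genes were REPS1, REPS2, RALA, RALB, EPS15, EPS15L1, EPN1, EPN2 and ITSN1, 9 in all, and every probe set that the platform annotation pairs with the symbol of 1 of them alone was taken. This gave 8 genes with 1 probe set each, of 32321 probe sets on the array. REPS1, the paralog of REPS2, was not analysed here. REPS2 itself was chosen by its difference between the groups in these same arrays. Its values, intervals and limma p-values are therefore given as a description and do not count as a test of it. The other members were chosen as its relatives and partners, with earlier results of these data known.

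The tested cells, DLD-1/DKK1, were DLD-1 cells transduced with a lentivirus that expresses DKK1, tagged with V5, in the presence of doxycycline. Their control, DLD-1/Mock, carried the lentivirus without the gene. DLD-1 is a human colorectal adenocarcinoma line with a mutation in APC and, according to the study, no DKK1 protein of its own. Both groups received doxycycline for a day (10 mg/ml in the labels, and the same figure in micrograms per ml in the methods), and RNA of 3 dishes per group was hybridised to 6 whole-transcript arrays. The study describes its transductions as typically reaching nearly all cells, judged by green fluorescence, which is not a value for these dishes. The 3 dishes are called independent, but no source used here says how many transductions they stem from, and the p-values cover only the spread between dishes.

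Cells take up surface receptors through clathrin-coated pits. Adaptors such as EPS15 and the epsins gather receptors and the AP-2 complex at the membrane, and EH domains, which recognise a short asparagine-proline-phenylalanine motif, hold these adaptors together. REPS2, also called POB1, carries an EH domain and is known to link signalling by the small GTPases RALA and RALB to the uptake of the EGF and insulin receptors.

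The promoter of REPS2 is shown because it is the member that differed between the groups and because the study lists this gene among those with DKK1 on chromatin, at a site not analysed here. The stretch runs from 250 bases before the annotated start to 50 bases after it, on the plus strand of X (GRCh38.p14, chrX:16946408-16946707, RefSeq), with GC boxes, the letters GGGCGG read on both strands, in capitals.
REPS2 promoter: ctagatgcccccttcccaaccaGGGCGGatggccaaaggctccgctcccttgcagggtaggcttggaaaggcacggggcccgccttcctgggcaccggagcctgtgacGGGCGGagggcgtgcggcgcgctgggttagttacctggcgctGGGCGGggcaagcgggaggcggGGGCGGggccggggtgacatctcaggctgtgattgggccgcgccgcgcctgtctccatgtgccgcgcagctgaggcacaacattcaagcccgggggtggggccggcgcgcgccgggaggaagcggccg
It held 4 GC boxes, which are letters bound by Sp1-type factors. A GC box was present in 45.0% of 35116 RefSeq promoters of this length, and 4 or more in 9.06%. The window was 73.0% G or C and held 31 CpG pairs, against a median of 58.7% and 14 CpG pairs over all promoters. The letters CTTTG of the TCF core, read on both strands, occurred at 1 place in REPS2 and in 47.5% of promoters.

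All 9 members had at least 1 entry, 11 in all, and the entry of REPS1 was 70.3% G or C, that of RALA 72.3%, that of RALB 69.7% and that of EPN1 72.0%. EPN1 also held 4 GC boxes, RALA and RALB held 2 each, and REPS1 held 1. ITSN1 lay nearer the median of all promoters, with 62.7% G or C, 16 CpG pairs and 3 GC boxes. EPS15 had an entry with 33.7% G or C and 0 CpG pairs and another with 77.3% G or C, 37 CpG pairs and 9 GC boxes. EPN2 held 2 GC boxes and each EPS15L1 entry 6, while the EPS15 entry with 33.7% G or C held 0. Each of the 9 members thus had at least 1 entry with a GC box. No base of these windows was measured in the cells, and the arrays say nothing of what binds there.

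The arrays were alike apart from Mock 2. Its correlations with the other 5 arrays across probe sets were 0.9953 to 0.9969, whereas no pair without Mock 2 was below 0.9973. The DKK1 transcript checked the labels, with log2 values of 12.30, 12.38 and 12.36 in DLD-1/DKK1 against 5.15, 5.74 and 5.01 in DLD-1/Mock. Of 10 markers of colorectal epithelium the median brightness percentile was 91.8, with EPCAM at 98.7, CDH1 at 97.6 and KRT20 lowest at 32.8. Of 11 markers of leukocytes, fibroblasts, endothelium and hepatocytes 10 were measured, at percentiles of 9.83 to 57.7, with the pan-leukocyte PTPRC at 4.34 in DLD-1/DKK1 and 4.34 in DLD-1/Mock. The summed log2 values of the epithelial markers overlapped, at 103.8 to 104.2 in DLD-1/DKK1 and 103.7 to 104.0 in DLD-1/Mock. Those of the 10 markers of other cell types were 58.61 to 59.09 in DLD-1/DKK1 and 59.30 to 60.63 in DLD-1/Mock, so the groups did not overlap. Of all single probe sets, 16.5% did not overlap either. None of these 10 markers of other cell types passed in limma. The lowest unadjusted limma p values were 0.00356 for CD68 (log2 fold change -0.26) and 0.0117 for CD14 (log2 fold change -0.27), which mark myeloid cells. Their part in the results on REPS2 and its partners was not tested.

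REPS2 was higher in every DLD-1/DKK1 array. Its log2 expression was 7.49, 7.46 and 7.50 in DLD-1/DKK1, against 7.0, 7.02 and 7.04 in DLD-1/Mock. The groups did not overlap, and the gap between the lowest DLD-1/DKK1 and the highest DLD-1/Mock array was 0.42 log2 units. The log2 fold change was 0.46 (SE 0.04), which is 1.38-fold with a 95% interval of 1.29-fold to 1.47-fold. The REPS2 probe set was at brightness percentile 55.4, below the other measured members, which were at 66.6 to 86.2. Markers of other cell types reached percentile 57.7, so REPS2 lay within their range. In bulk RNA a change in every cell and a larger change in some of them cannot be told apart.

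The values that chose REPS2 were this fold change and its limma adjusted p of 0.0259 over all probe sets. An adjusted p under 0.05 was reached by 0.0866% of probe sets, and by 0.0371% as higher in DLD-1/DKK1, which are 28 and 12 probe sets. REPS2 was 10th of these 12 by fold change. Its replicates lay close together, with an SD of 0.02 (n = 3) in DLD-1/DKK1 and 0.02 (n = 3) in DLD-1/Mock. The residual SD of 0.0201 was at percentile 2.22 of all probe sets, whose median was 0.0740. Mock 2, which stood apart over the whole array, lay between the other Mock arrays for REPS2. With Mock 2 left out the log2 fold change was 0.46 and the limma adjusted p 0.0856, and the adjusted p was above 0.05 with any other array left out as well.

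**Figure D1:**
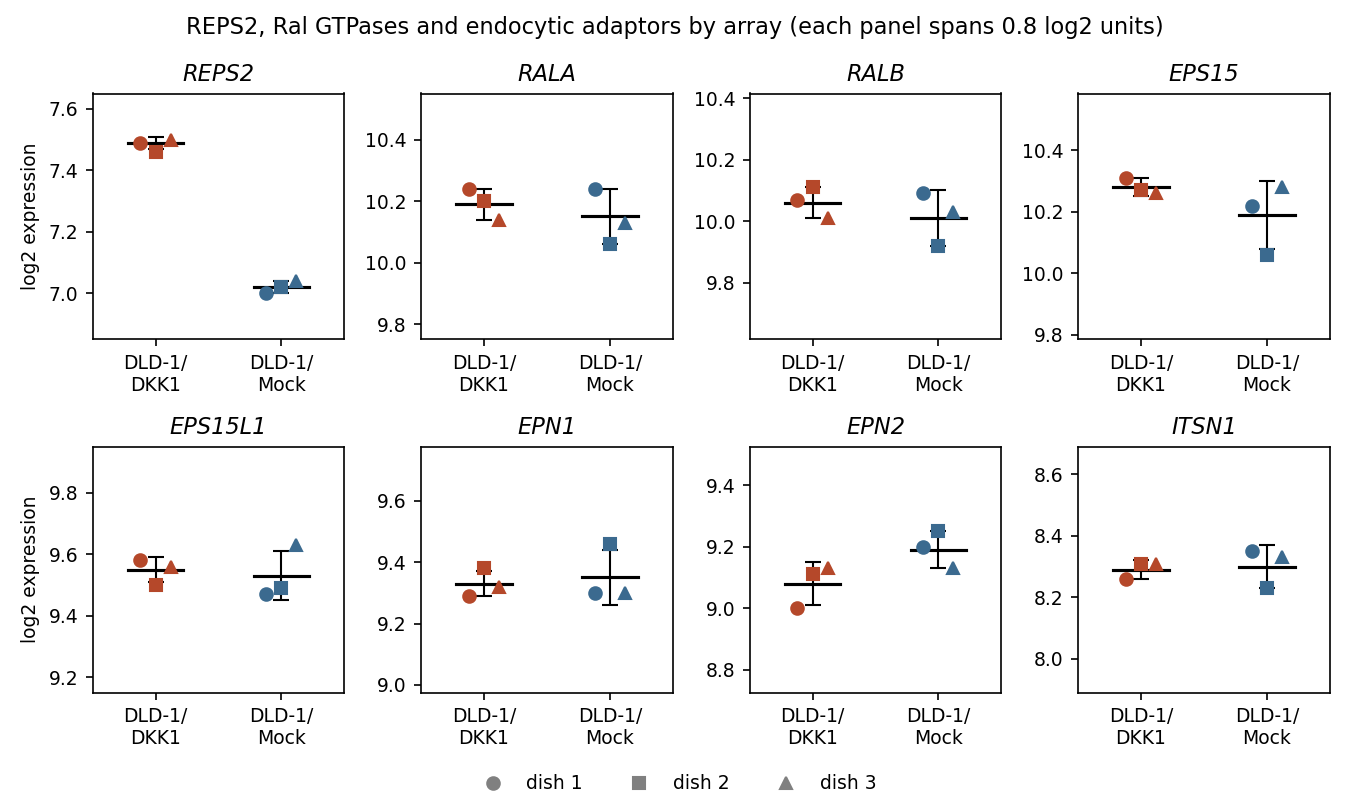
Log2 expression (vertical axis) of the 8 measured members in DLD-1/DKK1 (left, red) and DLD-1/Mock (right, blue) arrays, with a symbol for each dish number and horizontal bars and error bars for each group's mean ± SD (n = 3). All panels span the same number of log2 units. REPS2 is at 7.46 to 7.50 in DLD-1/DKK1 and 7.0 to 7.04 in DLD-1/Mock, and the groups overlap in the other 7 panels.

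The Ral GTPases, which switch between an active and an inactive form, did not pass. RALA, which drives exocytosis through the exocyst, was 10.24, 10.20 and 10.14 in DLD-1/DKK1 and 10.24, 10.06 and 10.13 in DLD-1/Mock. RALB, its close paralog with roles in cell survival and migration, was 10.07, 10.11 and 10.01 in DLD-1/DKK1 and 10.09, 9.92 and 10.03 in DLD-1/Mock. In both genes Mock 2 was the lowest array and the groups overlapped. The log2 fold changes were 0.05 (SE 0.06; limma adjusted p = 0.795) for RALA and 0.05 (SE 0.06; limma adjusted p = 0.772) for RALB. Without Mock 2 they were 0.008 and 0.007. The log2 fold changes of RALA and RALB differed by -0.005, with a 95% interval of -0.084 to 0.074 and an exact two-sided permutation p of 0.9.

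The EPS15 pair binds AP-2 and carries EH domains like that of REPS2. EPS15 was 10.31, 10.27 and 10.26 in DLD-1/DKK1 and 10.22, 10.06 and 10.28 in DLD-1/Mock. Here the DLD-1/DKK1 arrays sat near the top of the Mock range, and the lowest value was again Mock 2. The log2 fold change of EPS15 was 0.09 (SE 0.06; limma adjusted p = 0.660). Without Mock 2 this fold change was 0.03 (limma adjusted p = 0.888). EPS15L1, the paralog of EPS15 in constitutive uptake, was 9.58, 9.50 and 9.56 in DLD-1/DKK1 and 9.47, 9.49 and 9.63 in DLD-1/Mock. All DLD-1/DKK1 values of EPS15L1 fell inside the Mock range, and its log2 fold change was 0.02 (SE 0.06; limma adjusted p = 0.928), which turned to -0.001 after quantile normalisation. The fold changes of EPS15 and EPS15L1 differed by 0.08 on the log2 scale, with a 95% interval of -0.08 to 0.23 and an exact permutation p of 0.3.

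The epsins bend the membrane through their ENTH domain and offer the motifs that EH domains bind. EPN1 was 9.29, 9.38 and 9.32 in DLD-1/DKK1 and 9.30, 9.46 and 9.30 in DLD-1/Mock. EPN2 was 9.0, 9.11 and 9.13 in DLD-1/DKK1 and 9.20, 9.25 and 9.13 in DLD-1/Mock. The groups of EPN2 overlapped only at 9.13, the highest DLD-1/DKK1 and the lowest DLD-1/Mock array. Its log2 fold change was -0.11 (SE 0.05), the lowest of the list, with limma p values of 0.0878 before adjustment and an adjusted p of 0.582. EPN1 had -0.02 (SE 0.06; limma adjusted p = 0.926), and turned to 0.03 after median centring, to 0.015 with array weights and to 0.04 without Mock 2. In both epsins Mock 2 was the highest array. The log2 fold changes of EPN1 and EPN2 differed by 0.09, with a 95% interval of -0.04 to 0.22 and an exact permutation p of 0.2.

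ITSN1, a scaffold with EH and SH3 domains that joins epsins and dynamin, completed the list. It was 8.26, 8.31 and 8.31 in DLD-1/DKK1 and 8.35, 8.23 and 8.33 in DLD-1/Mock. All 3 DLD-1/DKK1 arrays lay inside the Mock range. The log2 fold change was -0.01 (SE 0.05; limma adjusted p = 0.943), and 0.04 after median centring.

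Apart from REPS2, 0 of the 7 measured members passed an adjusted p of 0.05 in limma, and 0 had an unadjusted p under 0.05, which 9.23% of all probe sets had. In none of the 7 were the groups apart, as they were in 16.5% of all probe sets. Of the 7, 4 had fold changes above 0 and 3 below, with a median log2 fold change of 0.02 against -0.01 over all probe sets. After median centring 6 lay above 0 and 1 below, with a median of 0.07. After quantile normalisation 3 lay above 0 and 4 below, with a median of -0.001. Of all genes 46.4% lay above 0 as deposited and 70.3% after centring. The 95% intervals of the 7 ran from -0.239 at the lowest to 0.246 at the highest, or 0.847-fold to 1.19-fold. None reached the 0.46 of REPS2, but REPS2 was chosen by that value in these arrays, so the distance is a description. The 3 tests of paralogs had adjusted p values of 0.9, 0.45 and 0.45, and with 3 arrays per group the smallest exact p is 0.1.

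Within each array REPS2 was also set against its partners, as a description. The DLD-1/DKK1 minus DLD-1/Mock difference of REPS2 exceeded that of EPS15 by 0.37 log2 units, the smallest margin, and that of EPN2 by 0.57, the largest. The margin was 0.41 over RALA, 0.41 over RALB, 0.45 over EPS15L1, 0.48 over EPN1 and 0.48 over ITSN1. For all 7 partners the ratio of REPS2 to the partner was higher in each DLD-1/DKK1 array than in any DLD-1/Mock array. As REPS2 was chosen by its difference in these arrays, margins of this kind follow from that choice.

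**Figure D2:**
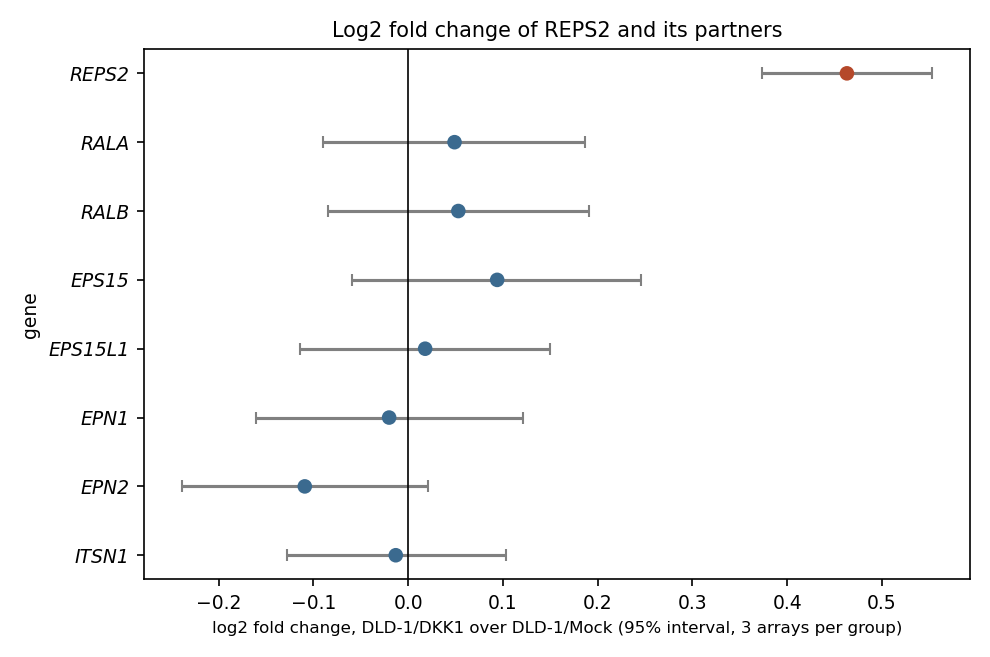
DLD-1/DKK1 minus DLD-1/Mock difference in log2 expression (horizontal axis) of the 8 measured members, where points mark limma estimates and lines their 95% intervals (n = 3 arrays each). REPS2, in red, is at 0.46, and the other members, in blue, lie between -0.11 for EPN2 and 0.09 for EPS15 with intervals that all include 0.

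Mock 2 lay at an end of the range in most partners. It was the lowest of the 6 arrays in RALA, RALB, EPS15 and ITSN1 and the highest in EPN1 and EPN2, 6 of the 7, and it was the lowest or highest array in 54.4% of all probe sets. Without it the log2 fold changes of these 7 ran from -0.08 for EPN2 to 0.04 for EPN1.

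The wider Ral pathway was covered by 17 of 18 listed genes. They were exchange factors and GTPase-activating complexes of Ral and the exocyst, which tethers vesicles to the membrane and holds Ral effectors among its subunits. None passed an adjusted p of 0.05 in limma, which 0.136% of 18404 genes did, and 1 had an unadjusted p under 0.05, against 10.1% of genes. This was EXOC4, an exocyst subunit, at 9.57, 9.57 and 9.54 in DLD-1/DKK1 and 9.44, 9.37 and 9.39 in DLD-1/Mock. The groups of EXOC4 did not overlap, and its log2 fold change was 0.16 (SE 0.04; limma adjusted p = 0.398). The list had 10 genes above 0 and 7 below, with a median of 0.03 that was 0.001 without Mock 2. Over all genes 46.4% lay above 0 and the median was -0.007. After median centring 14 of the 17 lay above 0 with a median of 0.084, and 70.3% of all genes did with a median of 0.045.

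Of the further EH-domain proteins and early adaptors, 15 of 16 were measured and 0 passed in limma. An unadjusted p under 0.05 was found for 1 higher and 1 lower gene of these 15, against 10.1% of all genes in either direction. FCHO1, an F-BAR protein that starts coated pits, was 6.59, 6.39 and 6.46 in DLD-1/DKK1 and 6.74, 6.67 and 6.74 in DLD-1/Mock, and the difference was -0.23 log2 units (SE 0.06; limma adjusted p = 0.403). EHBP1, which ties EHD proteins to actin, was 9.72, 9.67 and 9.69 in DLD-1/DKK1 and 9.59, 9.49 and 9.59 in DLD-1/Mock, with 0.14 (SE 0.05; limma adjusted p = 0.493). Neither gene overlapped between the groups. The list had 9 genes above 0 and 6 below, with a median of 0.008, and 46.4% of all genes lay above 0. The median turned to -0.022 without Mock 2 and was 0.061 after median centring. After centring 9 again lay above 0, against 70.3% of all genes.

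The coat gave no named gene. Of 30 genes of clathrin, AP-2, their accessory proteins and the dynamins 28 were measured, 0 passed in limma and 0 had an unadjusted p under 0.05. Of all genes 10.1% had such an unadjusted p. The log2 fold changes of the list ran from -0.095 to 0.084, 10 above 0 and 18 below, and 46.4% of all genes lay above 0. The median of -0.019 turned to 0.034 after median centring, with 23 above 0 and 70.3% of all genes above 0.

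Among 7 of 8 receptors that enter through coated pits 0 passed in limma, and 3 had an unadjusted p under 0.05, each higher in DLD-1/DKK1, against 10.1% of all genes in either direction. MET, the receptor of hepatocyte growth factor, was 11.61, 11.69 and 11.67 in DLD-1/DKK1 and 11.50, 11.50 and 11.56 in DLD-1/Mock, a difference of 0.14 log2 units (SE 0.04; limma adjusted p = 0.483). LRP6, the Wnt co-receptor that DKK1 binds, was 10.65, 10.61 and 10.65 in DLD-1/DKK1 and 10.55, 10.52 and 10.56 in DLD-1/Mock. Its groups did not overlap, and the log2 fold change was 0.09 (SE 0.04; limma adjusted p = 0.534). IGF1R, the receptor of insulin-like growth factors, was 10.02, 10.07 and 10.03 in DLD-1/DKK1 and 9.88, 9.98 and 9.93 in DLD-1/Mock. Its log2 fold change was 0.11 (limma adjusted p = 0.534), and 0.16 (limma adjusted p = 0.472) in its other, dimmer probe set. The groups of MET and IGF1R did not overlap either. The receptors whose uptake REPS2 is known to affect, picked for mention after their values were seen, had -0.03 for EGFR and 0.09 for INSR. The list had a median of 0.09, with 6 of 7 genes above 0, against 46.4% of all genes. After median centring all 7 lay above 0, with a median of 0.14, against 70.3% of all genes. The groups lay apart in 4 of these 7 receptors, in 3 of the 17 Ral and exocyst genes, in 2 of the 15 adaptors and in 5 of the 28 coat genes, against 16.5% of all probe sets.

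**Figure D3:**
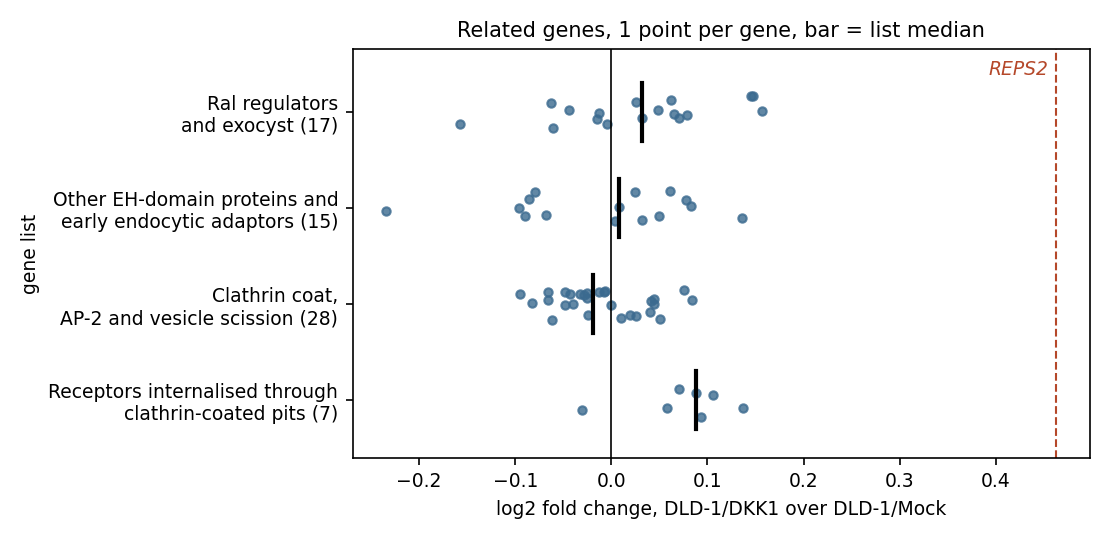
DLD-1/DKK1 minus DLD-1/Mock difference in log2 expression (horizontal axis) of the measured genes of 4 related lists, with a point per gene, a black bar for the list median, the number of genes in brackets and a dashed line at the 0.46 of REPS2. The medians are 0.032, 0.008, -0.019 and 0.088 from top to bottom. No gene reaches the line, which stands at a value by which REPS2 was chosen in these same arrays.

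None of the genes beside REPS2 on X passed. The 3 nearest measured genes before it in chromosome order were SYAP1, TXLNG and RBBP7, and the 3 after it NHS, SCML1 and RAI2. RBBP7, a histone-binding subunit of chromatin complexes and the nearest before REPS2, was 12.21, 12.23 and 12.21 in DLD-1/DKK1 and 12.22, 12.18 and 12.17 in DLD-1/Mock. NHS, the nearest after it and the gene of Nance-Horan syndrome, was 7.90, 7.87 and 7.83 in DLD-1/DKK1 and 7.88, 7.92 and 7.94 in DLD-1/Mock. Both overlapped between the groups. Log2 fold changes of the neighbours were 0.10 for SYAP1, 0.03 for TXLNG, 0.03 for RBBP7, -0.05 for NHS, 0.07 for SCML1 and -0.05 for RAI2, and 0 of the 6 passed (limma adjusted p of 0.593 to 0.819). The signs of NHS and RAI2 turned after median centring, to 0.004 and 0.003. The highest bound of the 6 intervals was 0.217, for SYAP1. The groups lay apart in 1 of the 6, SCML1, where the gap rounded to 0.0 log2 units, and in 16.5% of all probe sets.

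**Figure D4:**
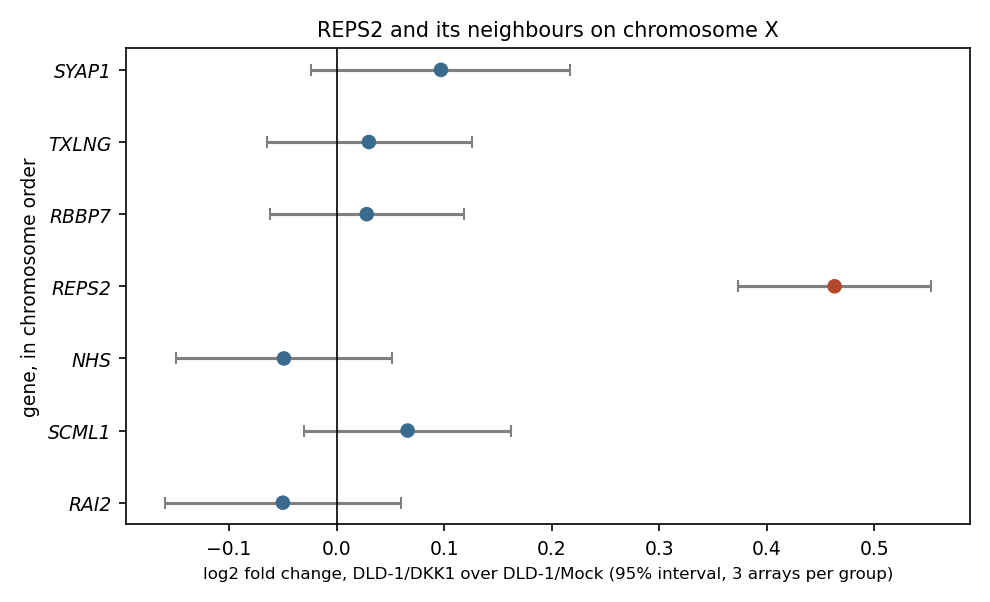
DLD-1/DKK1 minus DLD-1/Mock difference in log2 expression (horizontal axis) of REPS2, in red, and the 3 measured genes on each side of it, in blue, in their order on X, where points mark limma estimates and lines their 95% intervals (n = 3 arrays each). REPS2 is at 0.46 and its neighbours lie between -0.05 and 0.10.

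The genes most like REPS2 over the 6 arrays were CST1 (Pearson r 0.997), DKK1 (0.995), TGFB2 (0.994), ALDH1A1 (0.988) and MIR31HG (0.987), among 440 genes with an SD of at least 0.2. CST1 is a secreted inhibitor of cysteine proteases, TGFB2 a TGF-beta ligand, ALDH1A1 a retinaldehyde-oxidising enzyme and MIR31HG a long non-coding RNA. CST1 was 11.76, 11.76 and 11.75 in DLD-1/DKK1 and 11.17, 11.17 and 11.18 in DLD-1/Mock. In all 5 the DLD-1/DKK1 arrays lay above the DLD-1/Mock arrays, as in REPS2. After each group mean was subtracted the correlations with REPS2 were -0.12, -0.17, 0.54, -0.49 and 0.46 in the same order. Among members, none besides REPS2 varied enough over the arrays to enter this comparison. As the 6 arrays fall into 2 separate groups, these correlations describe the arrays and carry no test.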

How the data were processed

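Values of 3 DLD-1/DKK1 and 3 DLD-1/Mock arrays (Affymetrix Human Gene 1.0 ST, biotin label) were used as deposited. The authors made these log2 values from the scans in R with affy and the robust multichip average method. This method removes background, gives all arrays 1 distribution and then combines probes into probe sets. A difference shared by most transcripts would be removed at least in part. The medians of the deposited arrays still ran from 6.7566 to 6.8613. The sources used here give no versions or annotation build. Of 32321 probe sets, 19158 had 1 gene symbol, 1388 several and 11775 none, and the gene number gave 19128 a current symbol (GRCh38.p14).

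The difference DLD-1/DKK1 minus DLD-1/Mock was fitted without a block by limma 3.58.1 (lmFit, eBayes; R 4.3.3) and tested two-sided, with Benjamini-Hochberg adjustment across the whole array (threshold 0.05). Intervals are at 95%. Single values were compared by exact permutation over arrays. For lists, the probe set with the highest mean was kept per gene (18404 genes). The members, the lists and the rule for named genes were chosen with earlier results of these data known. The rule named all members and the 3 measured genes on each side of REPS2, up to 4 genes per list with the smallest unadjusted p if under 0.05, and the 5 genes most correlated with REPS2. Promoters of 300 bases came from RefSeq.

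The alternatives tried were median centring, quantile normalisation, brightness or annotation filters, other priors, array weights, a replicate block and leaving out each array. The fit was tested on simulated arrays for this comparison (32321 probe sets, 200 changed in each of 3 runs), where 69.8% of changes of 0.5 and 19.5% of changes of 0.3 on the log2 scale were recovered. The REPS2 minus REPS1 comparison was not run. The number of arrays limits the precision. Figures were drawn with matplotlib 3.10.9.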

Additional observations from a re-analysis of the deposited data

How the results depend on the processing

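REPS2 kept its direction in all 14 alternatives run on it, with log2 fold changes of 0.454 to 0.515 and adjusted p values of 0.00599 to 0.29, and passed in 6. This direction was fixed by its choice. It did not pass without moderation (0.463, adjusted p = 0.071), with the replicate block (0.463, adjusted p = 0.29) or with any 1 array left out (0.454 to 0.475), where fewer arrays entered the fit. The count of members past the threshold was then 0 in place of 1. The count over all probe sets was 28 (12 higher, 16 lower), 17 after median centring (10 higher, 7 lower), 66 above the median brightness, 98 among annotated probe sets, 53 with a trended and robust prior, 59 with array weights, 1 without moderation, 1 with the replicate block and 2 to 6 with 1 array left out. The cause was not tested. All 4 related lists stayed at 0 in every setting.

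No other member passed in any setting. The sign turned for EPN1 with array weights (0.015) and median centring (0.032), for ITSN1 (0.04) and the neighbours NHS (0.004) and RAI2 (0.003) with median centring, which added 0.0524 to the median log2 fold change, and for EPS15L1 with quantile normalisation (-0.001). With 1 array left out EPS15L1 ran from -0.012 to 0.066, EPN1 from -0.048 to 0.035, ITSN1 from -0.051 to 0.012, and RALA minus RALB from -0.023 to 0.017. Of the 5 genes most like REPS2, 1 was also among the 5 highest by Spearman rho. No source used here states that the replicate numbers pair the dishes. Deviations from the group means correlated at 0.105, 0.008 and -0.137 for equal numbers and at -0.235 to 0.225 for unequal numbers. Not every array correlated best with its own number. With 3 dishes per group and Mock 2 apart from the rest, these correlations cannot decide whether dishes were handled in pairs.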
